A study of Mus musculus with 48 samples.

Results

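The integrins and laminins are the receptor and ligand families through which a cell grips its basement membrane. They were taken here as every protein-coding gene of the deposited tables whose mouse symbol names an integrin alpha or beta chain or a laminin alpha, beta or gamma chain. This gave 38 genes of the 34183 in each table (21794 of them protein-coding), namely 18 integrin alpha genes, 9 integrin beta genes and 11 laminin genes. Another 4 genes whose symbols begin alike but encode integrin-binding or integrin-like proteins were left out. The rule uses no measured value.

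RNA was prepared from dissociated adult mouse dorsal root ganglia, the home of sensory neuron cell bodies, enriched for neurons and grown in Neurobasal-A medium with B27. All mice were wild-type. The cells received a pool of ON-TARGETplus siRNAs or a synthetic mRNA directly after isolation, and stranded mRNA libraries were made from them 42 h later. The knockdown groups were siAtf3, siAtf4, siJun, siStat3, siKlf6, siRest and siAlyref, set against siCONTROL, and siCONTROL at 42 h was itself set against untransfected cells taken at time 0. The overexpression groups were Atf4 mRNA with Cebpg mRNA, and Atf4 mRNA alone, set against GFP mRNA. There were 4 libraries to a group, 12 groups and 48 libraries. Isolation, which cuts the axons, is shared by all of them, and the siCONTROL comparison with time 0 joins time in culture with transfection, which cannot be told apart. The labels give no strain or age and do not say whether the 4 libraries of a group came from separate animals or cultures, so a p-value here reflects library-to-library spread that may be technical.

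An integrin is a pair of 1 alpha and 1 beta chain that spans the membrane, binds matrix outside the cell and is tied by talin and kindlin to actin inside it. A laminin is a cross-shaped trimer of 1 alpha, 1 beta and 1 gamma chain that polymerises into the basement membrane around Schwann cells, blood vessels and ganglion cell bodies. Adult sensory neurons extend neurites on laminin through integrins that pair the beta1 chain (Itgb1) with alpha3, alpha6 or alpha7 (Itga3, Itga6, Itga7), and through alpha5 beta1 on fibronectin, and Itga7 is known as a gene that axon injury induces in these neurons.

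The totals of the 48 columns ranged from 1539198 to 6621566 expected counts. Levels are given as CPM, expected counts put on a common library size with TMM across each table. The deposited values behaved as counts scaled from TPM, so they are per transcript length and levels can be set side by side between genes. Each targeted gene was lower in every library of its knockdown than in every siCONTROL library, at 16.8% of the siCONTROL mean for Atf4, 17.3% for Stat3, 17.4% for Atf3, 21.7% for Alyref, 23.5% for Klf6, 29.8% for Jun and 38.9% for Rest. Replicate 1 of siKlf6, of Atf4 plus Cebpg mRNA and of siRest correlated least with the other libraries of their groups (0.954, 0.965 and 0.966, against 0.976 to 0.986 for the other 45 libraries, on log2 CPM). These 3 libraries held 1539198, 2097054 and 1937372 counts. A member is said below to have risen or fallen where the adjusted p of edgeR's quasi-likelihood test, with Benjamini-Hochberg adjustment over all genes tested, was under 0.05.

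Promoter sequence was set beside the expression values for the 24 members that have an entry in the RefSeq table used (build GRCm38.p6, 27 windows). Itga7, Itga6, Lama4 and Lamc1 were among the members without an entry, so their promoters were not searched. In the windows at hand the 250 bases before the start were searched on both strands. The AP-1 site TGANTCA, which Jun and Atf3 dimers bind, was in 1 of the 27 windows (Itgax) and in 6.75% of all 32851 windows. A full cyclic AMP response element, TGACGTCA, was in 0 of 27 (1.55% of all windows), and so was the composite C/EBP-ATF site TGATGNAA (3.45%). The STAT site TTCNNNGAA was in 2 of 27, Itga10 and Lamb2 (7.02%), the TATA box TATAAA in 0 of 27 (12.4%), and the GC box GGGCGG in 9 of 27 (32.7%). A letter match is a description and not a binding site, and the motifs named can overlap one another. The windows of 3 genes with knockdown calls are shown: Itga5, which went opposite ways in siAtf3 and siJun, Itgb5, which fell in siAtf4, and Lamb3, which fell in siAtf3 and siJun. The Itga5 window lies at chr15:103366792-103367041 on the minus strand, the Itgb5 window at chr16:33829415-33829664 on the plus strand and the first of the Lamb3 windows at chr1:193301744-193301993 on the plus strand. Each is written 5′ to 3′ in the direction of transcription, ends at the base before the annotated start, and has GC boxes of either strand in capitals.
Itga5: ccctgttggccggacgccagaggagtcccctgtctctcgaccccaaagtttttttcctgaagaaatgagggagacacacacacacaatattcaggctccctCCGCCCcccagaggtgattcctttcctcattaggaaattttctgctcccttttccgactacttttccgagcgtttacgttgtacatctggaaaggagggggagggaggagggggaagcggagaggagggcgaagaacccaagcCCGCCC
Itgb5: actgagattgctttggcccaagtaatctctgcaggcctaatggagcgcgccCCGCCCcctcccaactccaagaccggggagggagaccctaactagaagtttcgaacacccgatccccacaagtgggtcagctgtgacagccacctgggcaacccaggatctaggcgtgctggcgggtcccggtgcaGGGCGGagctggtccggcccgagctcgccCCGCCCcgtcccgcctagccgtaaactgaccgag
Lamb3: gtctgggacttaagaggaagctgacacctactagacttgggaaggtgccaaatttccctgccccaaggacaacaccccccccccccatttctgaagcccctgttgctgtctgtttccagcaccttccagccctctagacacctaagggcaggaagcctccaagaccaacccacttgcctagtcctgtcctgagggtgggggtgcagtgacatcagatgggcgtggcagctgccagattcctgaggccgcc
Itga5 has 2 GC boxes, whose first bases lie 149 and 6 bases before the start. Itgb5 has 3, at 199, 63 and 34 bases before it, while the Lamb3 window has 0. The base composition was 55.6% G or C with 11 CpG in Itga5, 65.2% with 18 CpG in Itgb5 and 58.8% with 2 CpG in Lamb3. None of the other motifs searched was found in these 3 windows.

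In siCONTROL cultures at 42 h, 13 of the 38 members averaged at least 10 CPM. Itga7 led with 680 ± 63.9 CPM (SD, n = 4 for every group mean here), followed by its partner chain Itgb1 with 508 ± 37.0 CPM. Itga3 came next with 107 ± 15.8 CPM, below every Itgb1 library. Itga6 (52.2 ± 8.68 CPM), Lamc1 (48.8 ± 12.5 CPM), Lamb1 (42.1 ± 7.71 CPM), Itgav (37.0 ± 1.93 CPM), Itga5 (35.2 ± 5.11 CPM) and Lama4 (34.5 ± 9.51 CPM) then formed a run in which neighbours did not differ beyond their spread. At the other end, 9 members stayed under 3 CPM in every library, and 11 were too low for a test in any fit. These 11 were the leukocyte integrin genes Itgad, Itgae, Itgal, Itgam, Itgax, Itgb2 and Itgb2l, the collagen receptor gene Itga10, the epithelial Itgb6, Lama3 and Lamc3, and their highest value in any library was 4.59 CPM. Itgb2l was at 0 in 45 libraries and Itgad in 42.

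Most expressed members were higher after 42 h in culture. Of the 22 members tested, 14 rose and 2 fell in siCONTROL at 42 h relative to time 0, or 72.7% of the members tested, where 57.9% of all 13448 genes tested were called (28.7% up and 29.2% down). The median log2 fold change was 0.82 over the 22 members and 0.01 over all genes tested. Members not tested in this fit beside the 11 named above were Itga1, Itga4, Itga8, Itgb7 and Lama1. The gene for the laminin-binding alpha7 chain and the gene for the fibronectin receptor alpha5 chain rose furthest among the integrins, and Lamb3 and Lama5 among the laminins.

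Among the laminin-binding integrins, Itga7 measured 756, 700, 604 and 660 CPM in the siCONTROL libraries 1 to 4 at 42 h, against 108, 109, 99.4 and 95.5 CPM at time 0. Every 42 h library lay above every time 0 library, and the fold change was 6.58 (log2 2.72 ± 0.08 SE, adjusted p = 1.4e-09). Itga3 averaged 107 ± 15.8 CPM at 42 h and 67.0 ± 5.87 CPM at time 0 (log2 0.67, adjusted p = 0.00044), and Itga6 averaged 52.2 ± 8.68 CPM at 42 h and 31.1 ± 2.83 CPM at time 0 (log2 0.74, adjusted p = 0.000517). Both rose with no overlap of libraries. Itgb4, the beta chain that pairs with alpha6 alone, was 6.33 ± 1.40 CPM at 42 h and 6.23 ± 0.951 CPM at time 0 and was not called. Itga7 thus made up 72.9% of the summed CPM of the 18 integrin alpha genes at 42 h, against 43.5% at time 0.

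The shared beta1 chain gene Itgb1 measured 547, 472, 482 and 532 CPM in siCONTROL at 42 h, against 200, 204, 194 and 205 CPM at time 0. It rose 2.52-fold with no overlap (log2 1.33 ± 0.07 SE, adjusted p = 4.17e-08). Its share of the summed beta-chain CPM was 89.5% at 42 h and 84.5% at time 0. The alpha7 gene therefore stood above its beta chain gene at 42 h, by mean level per length, and below it at time 0.

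**Figure D1:**
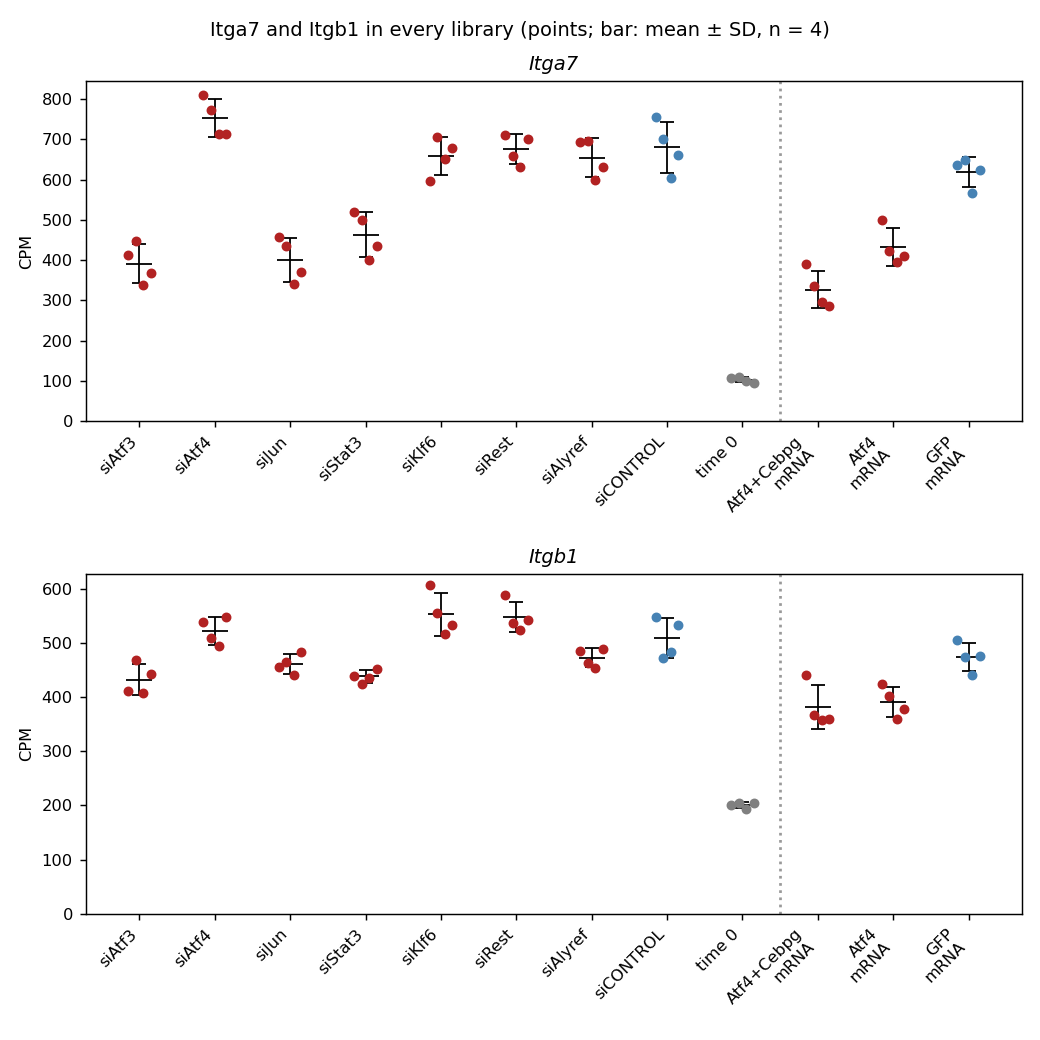
CPM of Itga7 (top) and Itgb1 (bottom) in each of the 48 libraries, one column of 4 points per group, with mean and SD. Bars and points left of the dotted line come from the siRNA and time 0 table and those right of it from the mRNA table, which were scaled separately. Itga7 lies between 95.5 and 109 CPM at time 0, and its siAtf3, siJun, siStat3, Atf4 mRNA and Atf4 plus Cebpg mRNA libraries all lie below their control libraries.

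Of the 8 genes for receptors that read the RGD motif of fibronectin and vitronectin, 6 were tested and 4 rose. Itga5, the alpha chain of the classical fibronectin receptor, was at 41.6, 30.9, 37.0 and 31.3 CPM in siCONTROL at 42 h, against 4.35, 2.08, 6.76 and 0.839 CPM at time 0, a 9.53-fold difference (log2 3.25 ± 0.35 SE, adjusted p = 1.26e-05). Itgav, the alpha chain of vitronectin receptors, was at 34.8, 37.4, 36.3 and 39.3 CPM in siCONTROL at 42 h, against 11.2, 7.22, 13.3 and 19.0 CPM at time 0 (log2 1.55 ± 0.22 SE, adjusted p = 0.00012). Its partner gene Itgb5 was at 26.7, 23.2, 26.3 and 23.1 CPM in siCONTROL at 42 h, against 13.99, 12.3, 9.28 and 12.5 CPM at time 0 (log2 1.05 ± 0.15 SE, adjusted p = 0.000118). None of these 3 genes had overlapping groups. Itgb8, another partner of alphaV, which activates latent TGF-beta, rose too (18.6 ± 4.54 CPM at 42 h and 11.1 ± 1.37 CPM at time 0, log2 0.73, adjusted p = 0.0064). Itgb3 (5.81 ± 0.466 CPM at 42 h and 4.29 ± 0.962 CPM at time 0) and Itga2b, the platelet alpha chain (4.03 ± 2.18 CPM at 42 h and 3.86 ± 2.48 CPM at time 0), were not called.

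The collagen receptor genes stayed low and split. Itga2 rose to 4.51 ± 0.837 CPM at 42 h, against 1.12 ± 1.22 CPM at time 0 (log2 2.08, adjusted p = 0.00573). The spread at time 0 came from replicate 4, at 2.94 CPM where the other 3 lay between 0.467 and 0.592 CPM, and without it the log2 fold change was 3.13. Itga11, a receptor of mesenchymal cells for fibrillar collagen, fell to 0.442 ± 0.238 CPM at 42 h, against 2.97 ± 0.396 CPM at time 0 (log2 -2.80, adjusted p = 0.000216). Itga9, which binds tenascin and VCAM1, was 3.28 ± 0.620 CPM at 42 h and 4.74 ± 1.99 CPM at time 0 and was not called.

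**Figure D2:**
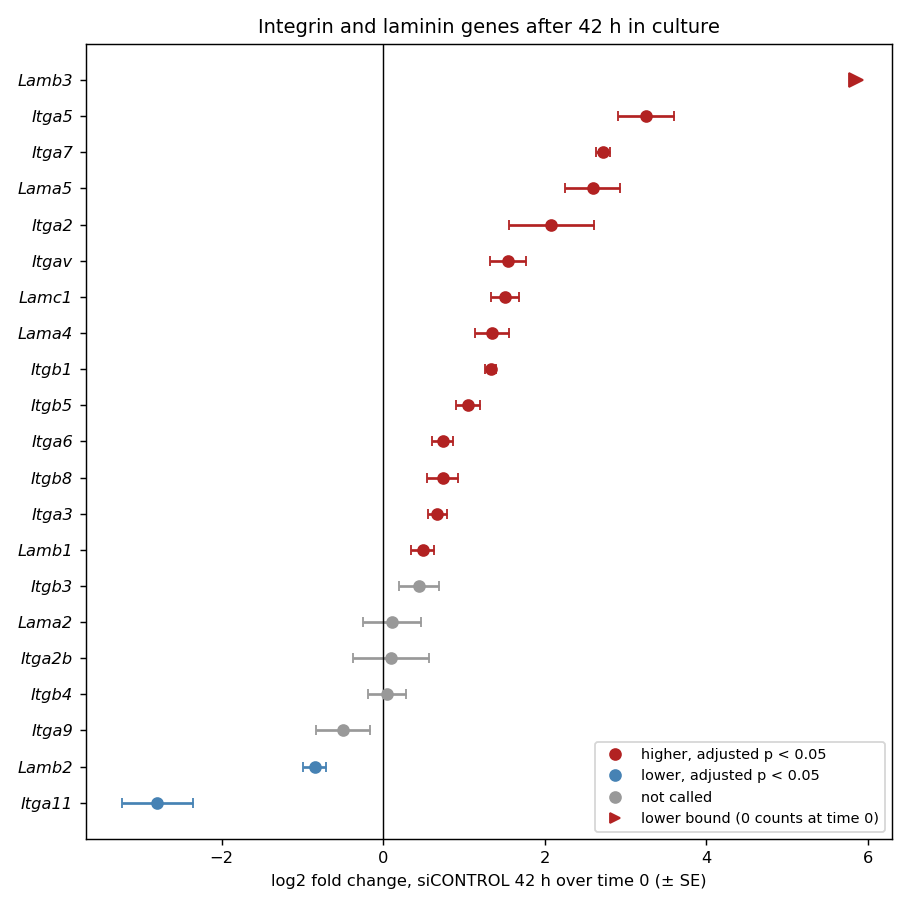
Log2 fold change of siCONTROL at 42 h over time 0 for 21 of the members tested (horizontal axis, bars ± SE, n = 4 libraries a group), coloured by call. 14 points on the right are called higher and Lamb2 and Itga11 on the left are called lower. Lamb3 is drawn at its lower bound because all its time 0 libraries were at 0.

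Of the laminin alpha chain genes, Lama5, the alpha chain of laminin-511, was at 12.6, 16.9, 8.87 and 9.47 CPM in siCONTROL at 42 h, against 1.67, 1.34, 3.30 and 1.45 CPM at time 0. It rose 6.03-fold without overlap (log2 2.59 ± 0.34 SE, adjusted p = 6.26e-05). Lama4, the alpha chain of laminin-411 in vessels and nerve, rose to 34.5 ± 9.51 CPM at 42 h, against 13.6 ± 2.30 CPM at time 0 (log2 1.35, adjusted p = 0.000193). Lama2, the alpha chain of the Schwann cell basement membrane, was 10.3 ± 5.43 CPM at 42 h and 9.50 ± 3.12 CPM at time 0 and was not called. As shares of the summed laminin alpha CPM, Lama4 held 57.8% at 42 h and 49.5% at time 0, Lama5 21.5% at 42 h and 7.09% at time 0, and Lama2 16.8% at 42 h and 33.9% at time 0.

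The beta and gamma chain genes did not move together. Lamb3, a chain of epithelial laminin-332, was at 18.3, 6.44, 7.95 and 5.35 CPM in siCONTROL at 42 h and at 0 in all 4 libraries at time 0, where 3 counts over the group would be 0.165 CPM. Against that floor it was at least 57.7-fold higher (adjusted p = 0.000117). Lama3, the alpha chain of the same trimer, was 1.18 ± 0.295 CPM at 42 h and 1.24 ± 0.213 CPM at time 0 and was too low for a test. Lamc1, the gamma chain of most laminins, measured 38.2, 40.1, 51.4 and 65.4 CPM in siCONTROL at 42 h, against 15.3, 17.9, 17.4 and 17.8 CPM at time 0 (log2 1.503 ± 0.17 SE, adjusted p = 2.34e-05, no overlap). Lamb1 rose to 42.1 ± 7.71 CPM at 42 h, against 29.8 ± 2.94 CPM at time 0 (log2 0.49, adjusted p = 0.0119), while Lamb2 fell to 9.92 ± 0.570 CPM, against 17.9 ± 1.38 CPM at time 0 (log2 -0.85, adjusted p = 0.000269). Lamb2 accounted for 16.3% of the summed laminin beta CPM at 42 h and 37.6% at time 0.

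**Figure D3:**
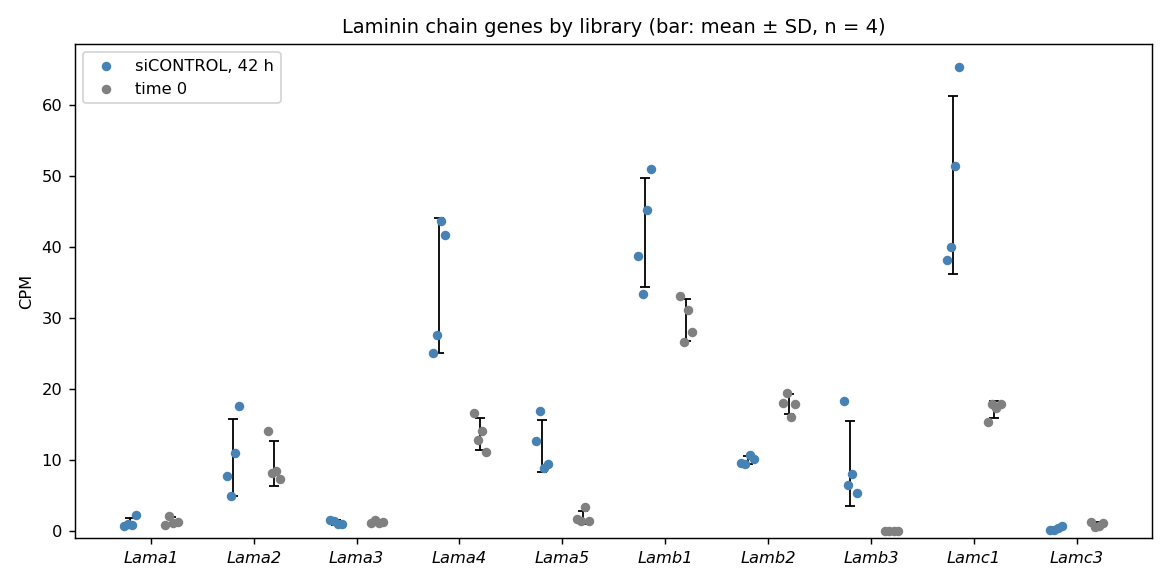
CPM of 10 laminin chain genes in the 4 siCONTROL libraries at 42 h (blue, left of each pair) and the 4 libraries at time 0 (grey, right), with mean and SD. Lama4, Lama5, Lamb1, Lamb3 and Lamc1 lie higher at 42 h with no overlap, Lamb2 lies lower, and Lamb3 is at 0 in every time 0 library. For Lamb1 the gap is narrow, from 33.2 CPM at most at time 0 to 33.3 CPM at least at 42 h.

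Markers of the other cells in the culture moved over the same interval. The summed level of 10 satellite glia markers was 765 to 894 CPM in siCONTROL at 42 h and 4561 to 5634 CPM at time 0 (7 markers fell, 2 rose), and that of 12 Schwann cell markers was 1448 to 1656 CPM at 42 h and 2251 to 2609 CPM at time 0 (9 fell, 1 rose, of 12 tested). The 10 endothelial and mural markers summed to 227 to 276 CPM at 42 h and 162 to 209 CPM at time 0. This list was split: 5 rose, among them Pecam1 by log2 2.42 and Cdh5 by log2 1.83, and 3 fell (median log2 0.45). Fibroblast markers summed to 135 to 283 CPM at 42 h and 269 to 488 CPM at time 0 (3 rose and 2 fell of 7 tested), macrophage and leukocyte markers to 27.6 to 46.8 CPM at 42 h and 13.8 to 22.2 CPM at time 0 (2 rose and 2 fell of 4 tested, with C1qa and C1qc at 0 in every siCONTROL library). Pan-neuronal markers summed to 15506 to 19549 CPM at 42 h and 21167 to 24009 CPM at time 0 (2 rose, 7 fell, of 15). The 13 mitochondrially encoded protein genes, read as a sign of RNA and cell state, summed to 22664 to 36066 CPM at 42 h and 51570 to 59425 CPM at time 0 (9 fell). In bulk RNA, fewer cells of a type and less RNA per cell cannot be told apart, and the part of these shifts in the member changes was not tested. Set against the neuronal sum, Itga7 stood at 3.58 to 4.22% of it in siCONTROL at 42 h and at 0.426 to 0.470% at time 0.

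The cytoplasmic partners and other matrix genes were taken from lists of 40 and 30 genes. Of 37 adhesion adaptors and kinases tested, 20 rose and 5 fell at 42 h (median log2 0.44), where 28.7% of all genes rose and 29.2% fell. Cd63, a tetraspanin that associates with integrins, rose by log2 2.84 (adjusted p = 4.3e-09), Tln1 (talin-1) by 1.44 and the actin crosslinker Flna by 2.07. Tln2 (talin-2) fell by 2.07 on the log2 scale (25.8 CPM at 42 h and 109 CPM at time 0), Tns1 (tensin-1) fell by 1.04 and Cd9 fell by 0.79. Of 24 other matrix ligands and receptors tested, 15 rose and 3 fell (median log2 0.93), beside the same shares of all genes. Tnc (tenascin-C), a ligand of alpha9 and alphaV integrins, rose by log2 5.48 (38.1 CPM at 42 h and 0.821 CPM at time 0), the syndecan gene Sdc1 by 1.85 and the basement membrane collagen gene Col4a2 by 2.27. Ccn1, Fbln5 and Ntn4 fell by 1.85, 1.40 and 1.11 on the log2 scale.

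The 7 knockdowns share the same 4 siCONTROL libraries, so their results are not independent of one another. They gave 17 calls over 9 members, 16 of them down and 1 up. With siAtf3, 6 of the 26 members tested were called (5 down, 1 up), where 11.5% of all 14876 genes tested were called (4% up, 7.49% down). With siJun 4 of 26 fell, where 7.78% of all genes were called and 4.59% fell. With siAlyref 3 fell (4.26% of all genes called, 3.37% down), and with siStat3 2 fell (3.03% called, 1.84% down). With siAtf4 1 fell (6.91% called, 4.17% down), or 3.85% of the members tested, near the background. With siKlf6 1 fell too (1.85% called, 1.14% down), a share above the background that rests on 1 gene. With siRest 0 of 26 were called by edgeR (0.202% of all genes), 0 had an unadjusted p under 0.05, and DESeq2 called 0. The member medians lay between -0.16 and 0.11 on the log2 scale in these 7 comparisons. All 9 members called down in a knockdown were among the 14 that rose in culture. The 9 were Itga3, Itga5, Itga6, Itga7, Itgb1, Itgb5, Itgb8, Lama5 and Lamb3. The culture and knockdown comparisons both use the siCONTROL libraries, so a high siCONTROL value favours this overlap in advance. Its share over all genes was not computed, and nothing is read from it about the members.

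**Figure D4:**
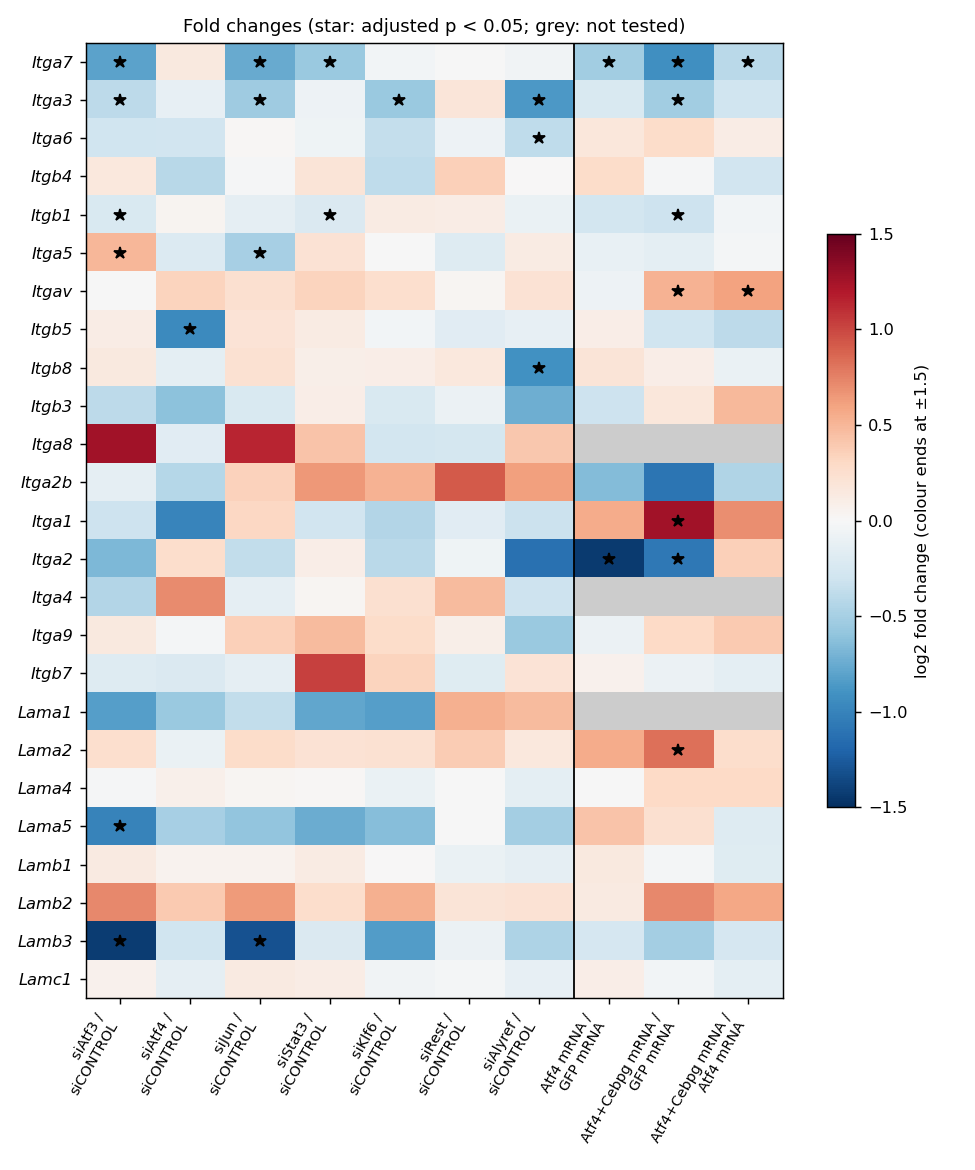
Log2 fold changes of 25 members (rows) in the 7 knockdowns over siCONTROL and the 3 mRNA comparisons (columns), red for higher and blue for lower in the first-named group, with a star where the adjusted p was under 0.05 and grey where a gene was not tested. Itga7 carries 6 stars, all blue, Itga3 carries 5, all blue, and Itga5 is red in siAtf3 and blue in siJun.

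Itga7, the most abundant integrin gene, was lower in 3 knockdowns. It measured 412, 448, 337 and 367 CPM with siAtf3, 458, 436, 341 and 370 CPM with siJun and 520, 499, 399 and 436 CPM with siStat3, against 756, 700, 604 and 660 CPM with siCONTROL. None of these groups overlapped siCONTROL. The log2 fold changes were -0.80 ± 0.10 SE with siAtf3 (1.74-fold lower, adjusted p = 6.06e-07), -0.76 ± 0.10 with siJun (adjusted p = 2.84e-06) and -0.55 ± 0.10 with siStat3 (adjusted p = 0.000625). The lowest knockdown library, at 337 CPM, was still above every time 0 library. With siAtf4 it measured 809, 774, 712 and 714 CPM and was not called, and the direct contrasts separated it from siAtf4 in siAtf3 (log2 -0.94, adjusted p = 1e-08) and in siJun (log2 -0.90, adjusted p = 3.48e-08).

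Itgb1, the partner of alpha7, moved less. It averaged 432 ± 28.8 CPM with siAtf3 and 508 ± 37.0 CPM with siCONTROL (log2 -0.23 ± 0.06 SE, adjusted p = 0.00632), and 438 ± 11.7 CPM with siStat3, against the same siCONTROL mean (log2 -0.21 ± 0.06 SE, adjusted p = 0.036). Neither group overlapped siCONTROL, although for siAtf3 the gap was narrow, from 468 CPM at most to 472 CPM at least with siCONTROL. The siStat3 call was lost without siCONTROL replicate 1 or 4 or without any 1 of siStat3 replicates 1 to 4, with log2 fold changes of -0.23 to -0.18 and adjusted p of 0.057 to 0.135, so siStat3 then had 1 called member. With siJun, Itgb1 averaged 461 ± 18.1 CPM and was not called.

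Neuronal markers moved in siAtf3 as well. Of 15 pan-neuronal markers 9 fell, and their sum was 12167 to 15533 CPM with siAtf3 and 15506 to 19549 CPM with siCONTROL. With siJun 3 of the 15 fell and 1 rose (sum 12865 to 16453 CPM), and with siStat3 2 fell (13850 to 17765 CPM). The median log2 fold change of the list was -0.37 with siAtf3, -0.08 with siJun and -0.13 with siStat3. The most abundant markers weigh most in the sum, so a percentage of it is not a correction for neuron number, here or below. As a percentage of that sum, Itga7 was 2.65 to 2.89% with siAtf3, 2.65 to 2.89% with siJun and 2.81 to 3.04% with siStat3, against 3.58 to 4.22% with siCONTROL, still without overlap. Itgb1 was 2.81 to 3.34% of the sum with siAtf3 and 2.41 to 3.29% with siCONTROL, which overlap. The part of the neuronal marker shift in the siAtf3 call on Itgb1 was not tested. Glul, in the satellite glia list, fell by 1.12 with siAtf3 and by 1.18 with siJun on the log2 scale, the 1 gene of its list called in each. The satellite glia sum was 563 to 696 CPM with siAtf3 and 512 to 748 CPM with siJun, against 765 to 894 CPM with siCONTROL, so both lay wholly lower. The median log2 fold change of that list was -0.08 with siAtf3 and 0.10 with siJun, so the list did not fall as a whole. Schwann cell markers summed to 1071 to 1229 CPM with siAtf3 (2 of 11 tested fell) and 1205 to 1450 CPM with siJun (1 fell), against 1448 to 1656 CPM with siCONTROL, and of these siAtf3 did not overlap. The median log2 fold change of the Schwann cell list was 0.03 with siAtf3 and -0.08 with siJun. The part of the lower glial marker sums in the siAtf3 and siJun calls on members was not tested.

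Itga3 was the member called in the most knockdowns, always lower. It measured 62.1, 68.7, 50.5 and 55.1 CPM with siAlyref, against 122, 119, 88.6 and 99.7 CPM with siCONTROL (log2 -0.86 ± 0.13 SE, adjusted p = 7.98e-05). The siAlyref libraries lay below every siCONTROL library. With siJun it was at 74.6, 87.9, 64.0 and 71.0 CPM, just below the lowest siCONTROL library (log2 -0.53, adjusted p = 0.0087). With siKlf6 it was at 66.4, 87.6, 73.9 and 59.2 CPM in replicates 1, 2, 4 and 5 (log2 -0.56 ± 0.13 SE, adjusted p = 0.019), also with no overlap, and with siAtf3 at 81.7, 103, 67.1 and 73.6 CPM, which overlaps siCONTROL (log2 -0.40, adjusted p = 0.0446). These last 2 calls did not hold when any 1 of several libraries was left out. The siKlf6 call was lost without siCONTROL replicate 1 or 2 or siKlf6 replicate 1, 4 or 5 (log2 -0.57 to -0.48, adjusted p 0.0531 to 0.094), which left siKlf6 with 0 called members. The siAtf3 call was lost without siCONTROL replicate 1, 2 or 4 or siAtf3 replicate 1, 3 or 4 (log2 -0.43 to -0.32, adjusted p 0.0526 to 0.167).

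Itga6 fell with siAlyref (40.2, 39.0, 37.9 and 43.2 CPM, against 47.3, 44.6, 52.6 and 64.2 CPM with siCONTROL). The groups did not overlap, although the highest siAlyref library lay close to the lowest siCONTROL library (log2 -0.38 ± 0.11 SE, adjusted p = 0.0458). That call was lost without siCONTROL replicate 3 or 4 or any 1 of siAlyref replicates 1 to 4 (log2 -0.41 to -0.26, adjusted p 0.0607 to 0.248). Alyref encodes an mRNA export adaptor, and pan-neuronal markers summed to 14160 to 16739 CPM with siAlyref (2 of 15 fell), against 15506 to 19549 CPM with siCONTROL. Itga3 per neuronal sum was 0.348 to 0.410% with siAlyref, 0.471 to 0.534% with siJun and 0.410 to 0.506% with siKlf6, against 0.572 to 0.679% with siCONTROL, without overlap. With siAtf3 it was 0.532 to 0.661%, which overlaps siCONTROL.

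Itga5 was the 1 member that rose in any knockdown, and it went opposite ways in siAtf3 and siJun. It measured 50.4, 48.1, 51.0 and 48.8 CPM with siAtf3 and 27.6, 24.3, 25.2 and 21.5 CPM with siJun, against 41.6, 30.9, 37.0 and 31.3 CPM with siCONTROL. The siAtf3 libraries all lay above and the siJun libraries all below the siCONTROL range. Per neuronal marker sum, Itga5 was 0.309 to 0.419% with siAtf3 and 0.148 to 0.196% with siJun, against 0.158 to 0.238% with siCONTROL, so by this measure siJun overlapped siCONTROL and siAtf3 did not. The log2 fold changes were 0.50 ± 0.11 SE with siAtf3 (adjusted p = 0.00135) and -0.50 ± 0.11 SE with siJun (adjusted p = 0.00313). Set directly against each other, siAtf3 was higher than siJun by log2 1.003 ± 0.11 SE (adjusted p = 8.42e-08), and of the 26 members tested it was the 1 member called in that contrast, where 9.87% of all genes were. Itga5 with siStat3 was at 44.3, 39.3, 41.7 and 37.4 CPM, not called against siCONTROL, and siJun lay below siStat3 by log2 -0.72 (adjusted p = 2.74e-05), a contrast that called 3 of 26 members and 9.94% of all genes.

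Itgb5, the alphaV partner, was lower in siAtf4 and in no other knockdown was it called. It measured 15.4, 12.2, 11.6 and 12.1 CPM with siAtf4, against 26.7, 23.2, 26.3 and 23.1 CPM with siCONTROL. Every siAtf4 library lay below every siCONTROL library, and the mean was 1.93-fold lower (log2 -0.95 ± 0.13 SE, adjusted p = 5.2e-06), near the 12.0 ± 1.98 CPM of time 0. Direct contrasts put siAtf3 above siAtf4 by log2 1.06 (adjusted p = 1.1e-07) and siJun above siAtf4 by log2 1.15 (adjusted p = 4.2e-08). In these contrasts 6 and 7 of 26 members were called, where 22.9% and 18.6% of all genes were. The alpha chain gene Itgav was at 37.7, 35.0, 47.6 and 67.0 CPM with siAtf4, against 34.8, 37.4, 36.3 and 39.3 CPM with siCONTROL, overlapping and not called. Without siCONTROL replicate 2, 2 members were called with siAtf4 in place of 1. Itgb8 was lower with siAlyref, at 10.4, 8.31, 9.69 and 10.8 CPM, against 15.5, 14.8, 19.3 and 24.7 CPM with siCONTROL (log2 -0.91 ± 0.19 SE, adjusted p = 0.00368, no overlap).

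**Figure D5:**
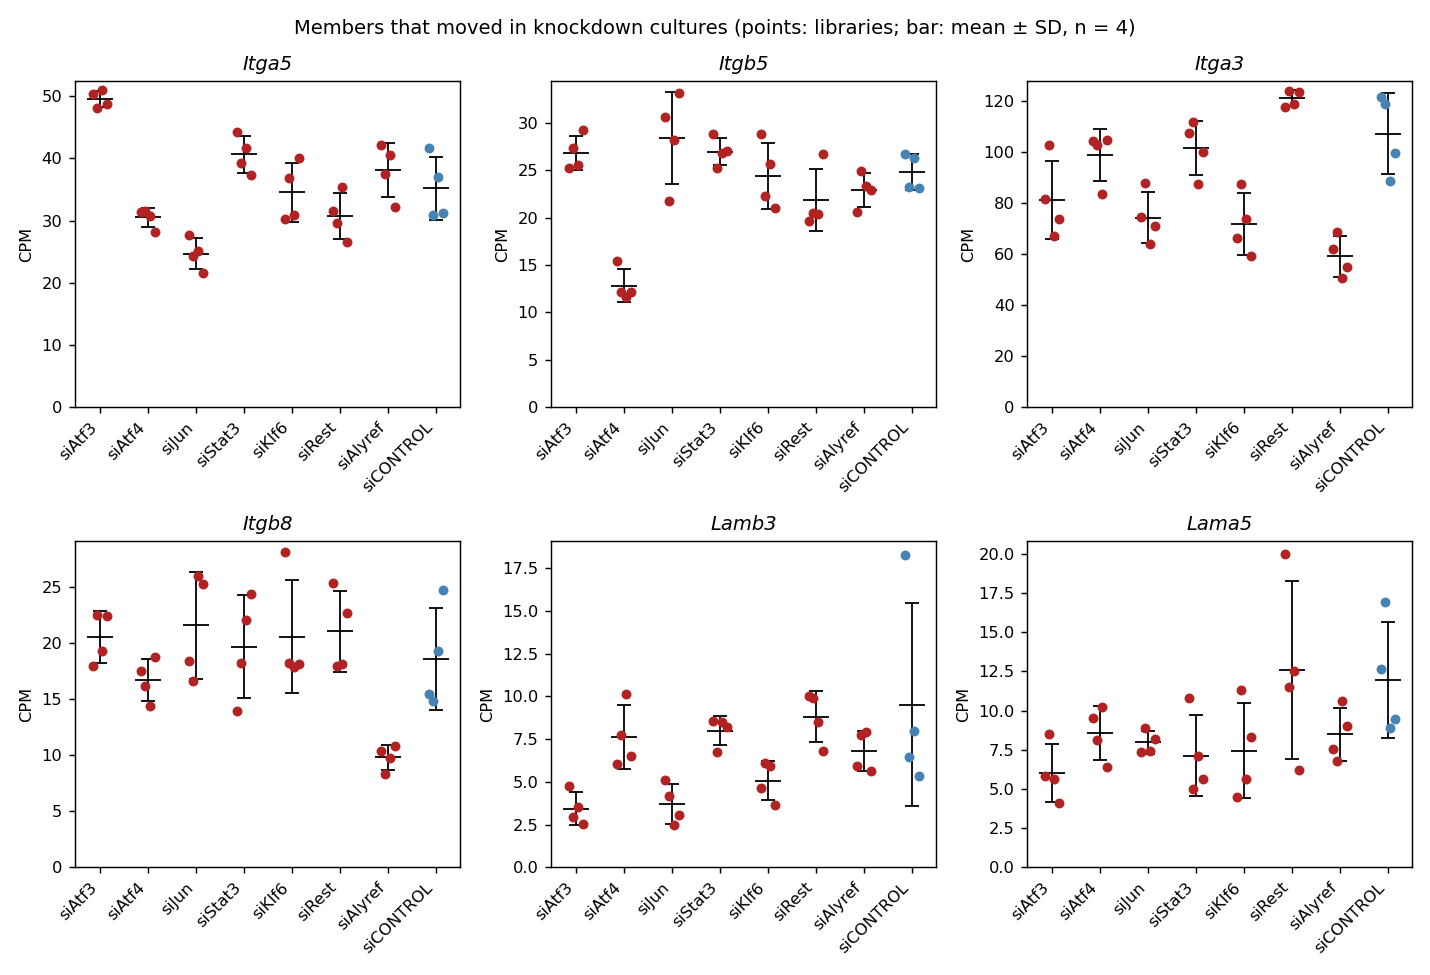
CPM of Itga5, Itgb5, Itga3, Itgb8, Lamb3 and Lama5 in each library of the 7 knockdowns (red) and siCONTROL (blue, far right), with mean and SD, n = 4. Itga5 is above siCONTROL with siAtf3 and below it with siJun, Itgb5 drops to 12.8 CPM on average with siAtf4, and siCONTROL replicate 1 stands at 18.3 CPM for Lamb3.

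Laminin genes were called in 2 knockdowns. Lamb3 measured 4.75, 2.95, 3.51 and 2.54 CPM with siAtf3 and 5.10, 4.15, 2.47 and 3.06 CPM with siJun, against 18.3, 6.44, 7.95 and 5.35 CPM with siCONTROL. Neither group overlapped siCONTROL (log2 -1.43 ± 0.30 SE and adjusted p = 0.00126 with siAtf3, log2 -1.31 ± 0.30 SE and adjusted p = 0.00465 with siJun). Replicate 1 of siCONTROL set much of the size: without it the log2 fold change was -0.94 with siAtf3 (adjusted p = 0.0135) and -0.82 with siJun (adjusted p = 0.0475). Contrasts that do not use siCONTROL put siAtf3 below siAtf4 by log2 -1.13 (adjusted p = 0.00542) and siJun below siStat3 by log2 -1.09 (adjusted p = 0.0159). Lama5 with siAtf3 was at 5.79, 8.53, 5.64 and 4.07 CPM, against 12.6, 16.9, 8.87 and 9.47 CPM with siCONTROL (log2 -0.999 ± 0.30 SE, adjusted p = 0.0243, no overlap). That call was lost without siCONTROL replicate 2 (log2 -0.76, adjusted p = 0.144) or without siAtf3 replicate 1, 3 or 4 (log2 -0.98 to -0.85, adjusted p 0.0576 to 0.0945).

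Lama1, Lama2, Lama4, Lamb1, Lamb2 and Lamc1 were tested in the knockdowns and called in none, and neither were Itga1, Itga2, Itga2b, Itga4, Itga8, Itga9, Itgav, Itgb3, Itgb4 and Itgb7. Lamc1, for example, was at 49.0, 51.1, 51.8 and 52.1 CPM with siAtf3, inside the siCONTROL range of 38.2 to 65.4 CPM. Lamb2 was at 9.78, 17.0, 16.5 and 21.9 CPM with siAtf3, against 9.55, 9.39, 10.6 and 10.1 CPM with siCONTROL, overlapping and not called.

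Genes around the receptors were called in 6 of the 7 knockdowns. With siAtf3, 6 of 37 adhesion adaptors and kinases fell and 1 rose, where 7.49% of all genes fell and 4% rose. Tln1 averaged 187 CPM with siAtf3 and 237 CPM with siCONTROL (log2 -0.35, adjusted p = 8.06e-05), Ilk, the integrin-linked pseudokinase, was lower by log2 -0.39 and its binding partner Parvb by -0.49, and Ptk2b, a relative of focal adhesion kinase, was higher by 0.38. With siJun 3 of 37 fell (4.59% of all genes), Tln1 (log2 -0.39), Tns1 (-0.49) and the kindlin gene Fermt2 (-0.28). With siAtf4 4 of 37 fell (4.17% of all genes), all tetraspanin genes, among them Cd63 (log2 -0.37), Cd9 (-0.29) and Cd81 (-0.40). Other calls were Git1 (log2 -0.45) and Rap1b (-0.47) with siStat3, where 1.84% of all genes fell, Cd9 (-0.39) with siKlf6 (1.14%) and Flna (-0.41) with siAlyref (3.37%), and with siRest 0 of 37 were called.

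Of 25 other matrix ligands and receptors tested in the knockdowns, 1 fell with siAtf3, 2 with siJun, 1 with siStat3, 1 with siAlyref and 0 with siAtf4, siKlf6 and siRest. Of all genes, 7.49% fell with siAtf3, 4.59% with siJun, 1.84% with siStat3, 3.37% with siAlyref, 4.17% with siAtf4 and 1.14% with siKlf6. With siRest 0.202% of all genes were called. Bcam, a receptor of the laminin alpha5 chain outside the integrin family, averaged 997 ± 121 CPM with siAtf3 and 1256 ± 210 CPM with siJun, against 1603 ± 221 CPM with siCONTROL. Only the siAtf3 libraries lay wholly below siCONTROL (log2 -0.69, adjusted p = 4.69e-05, and with siJun log2 -0.35, adjusted p = 0.0437, with overlap). Tnc was lower with siJun (log2 -0.66, adjusted p = 0.00302), Sdc1 with siStat3 (53.1 CPM against 128 CPM with siCONTROL, log2 -1.26, adjusted p = 2.29e-06) and the perlecan gene Hspg2 with siAlyref (log2 -0.54, adjusted p = 0.00467).

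Overexpression was read against 4 GFP mRNA libraries in a table of its own, which both mRNA comparisons share. The levels of Atf4 and Cebpg in these groups were not checked here, unlike those of the knockdown targets. With Atf4 plus Cebpg mRNA, 7 of 23 members tested were called against GFP mRNA, 3 up and 4 down, where 24.6% of all 13857 genes tested were called (12.4% up, 12.2% down), a share close to that of the members. With Atf4 mRNA alone 2 of 23 fell (4.84% of all genes called, 2.09% down). Between Atf4 plus Cebpg mRNA and Atf4 mRNA 1 rose and 1 fell (6.6% called, 4.5% up and 2.1% down). Itga11, Itga4, Itga8 and Lama1 were not tested in this table, beside the 11 low members.

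Itga7 was the member with the smallest adjusted p here too. It measured 389, 336, 295 and 287 CPM with Atf4 plus Cebpg mRNA and 501, 422, 394 and 410 CPM with Atf4 mRNA, against 636, 649, 566 and 623 CPM with GFP mRNA. The 3 groups did not overlap, and both fell against GFP mRNA (log2 -0.93 ± 0.10 SE, adjusted p = 2.49e-05 with both factors, and log2 -0.52 ± 0.10 SE, adjusted p = 0.0093 with Atf4 alone). The step between Atf4 plus Cebpg mRNA and Atf4 mRNA was log2 -0.41 (adjusted p = 0.0275), and that call was lost without Atf4 plus Cebpg mRNA replicate 2, 3 or 4 or Atf4 mRNA replicate 1 or 2 (log2 -0.42 to -0.33, adjusted p 0.0553 to 0.0941). Per neuronal marker sum, Itga7 was 1.70 to 2.93% with Atf4 plus Cebpg mRNA and 2.34 to 3.34% with Atf4 mRNA, against 3.42 to 3.74% with GFP mRNA.

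With Atf4 plus Cebpg mRNA 2 other laminin-receptor chain genes were lower. Itga3 was at 66.5, 55.1, 60.8 and 51.0 CPM, against 78.1, 80.2, 80.9 and 93.3 CPM with GFP mRNA, with no overlap (log2 -0.52 ± 0.09 SE, adjusted p = 0.00136). Itgb1 was at 441, 367, 357 and 360 CPM, against 504.3, 473, 440 and 475 CPM with GFP mRNA, where replicate 1 overlapped the lowest GFP mRNA library (log2 -0.31 ± 0.08 SE, adjusted p = 0.0107). Per neuronal marker sum both genes overlapped GFP mRNA: Itga3 was 0.279 to 0.500% with Atf4 plus Cebpg mRNA and 0.423 to 0.553% with GFP mRNA, and Itgb1 was 1.85 to 3.32% with Atf4 plus Cebpg mRNA and 2.498 to 2.97% with GFP mRNA. The part of the neuronal marker sum in these calls was not tested. With Atf4 mRNA alone Itgb1 was at 423, 402, 360 and 378 CPM, below every GFP mRNA library, and was not called.

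The collagen receptor genes Itga1 and Itga2 moved in opposite directions. Itga1 was at 3.79, 4.77, 2.76 and 4.89 CPM with Atf4 plus Cebpg mRNA, against 1.84, 1.36, 2.06 and 1.43 CPM with GFP mRNA (log2 1.26 ± 0.31 SE, adjusted p = 0.00924, no overlap). Itga2 was at 2.79, 1.33, 1.36 and 1.47 CPM with Atf4 plus Cebpg mRNA and at 1.51, 1.36, 0.995 and 0.952 CPM with Atf4 mRNA, against 3.002, 3.79, 3.50 and 3.44 CPM with GFP mRNA. Both groups lay below GFP mRNA (log2 -1.08, adjusted p = 0.0335 with both factors, log2 -1.43, adjusted p = 0.0281 with Atf4 alone). At these levels the Itga2 calls did not hold when any 1 of several libraries was left out. The Itga2 call was lost without any 1 of the 4 GFP mRNA libraries in both comparisons, without Atf4 plus Cebpg mRNA replicate 2, 3 or 4 (adjusted p 0.053 to 0.107 over these) and without Atf4 mRNA replicate 2, 3 or 4 (adjusted p 0.0589 to 0.0943 over these, leaving Atf4 mRNA with 1 called member).

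Itgav and Lama2 rose with both factors. Itgav was at 40.7, 44.8, 46.7 and 49.3 CPM with Atf4 plus Cebpg mRNA and at 31.2, 23.4, 25.5 and 40.4 CPM with Atf4 mRNA, against 28.8, 36.0, 36.4 and 25.3 CPM with GFP mRNA. The Atf4 plus Cebpg mRNA libraries lay above all others (log2 0.52 over GFP mRNA, adjusted p = 0.0316, and log2 0.60 over Atf4 mRNA, adjusted p = 0.0451). The gap to Atf4 mRNA was narrow, from 40.4 CPM in Atf4 mRNA replicate 4 to 40.7 CPM in Atf4 plus Cebpg mRNA replicate 1. The call against GFP mRNA was lost without GFP mRNA replicate 1 or 4 or Atf4 plus Cebpg mRNA replicate 2, 3 or 4 (adjusted p 0.0542 to 0.0901), and the call against Atf4 mRNA without Atf4 plus Cebpg mRNA replicate 2, 3 or 4 or Atf4 mRNA replicate 1, 2 or 3 (adjusted p 0.0864 to 0.125). Between Atf4 plus Cebpg mRNA and Atf4 mRNA the count of 2 called members became 4 without Atf4 plus Cebpg mRNA replicate 1, 1 without Atf4 mRNA replicate 1 or 3, and 0 without Atf4 plus Cebpg mRNA replicate 2, 3 or 4 or Atf4 mRNA replicate 2.

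Lama2 was at 11.6, 10.6, 16.3 and 8.17 CPM with Atf4 plus Cebpg mRNA, against 6.49, 7.63, 5.34 and 6.56 CPM with GFP mRNA, with no overlap (log2 0.83 ± 0.24 SE, adjusted p = 0.0227). The call was lost without replicate 3 of Atf4 plus Cebpg mRNA (log2 0.63, adjusted p = 0.0801) or of GFP mRNA (log2 0.74, adjusted p = 0.0617). Other cell markers moved in this comparison: endothelial and mural markers summed to 277 to 323 CPM with Atf4 plus Cebpg mRNA and 188 to 264 CPM with GFP mRNA (3 of 9 tested rose), and 2 of 11 Schwann cell markers rose and 1 fell, with sums of 1101 to 1391 CPM with Atf4 plus Cebpg mRNA and 1281 to 1423 CPM with GFP mRNA. Satellite glia markers summed to 452 to 558 CPM with Atf4 plus Cebpg mRNA and 479 to 554 CPM with Atf4 mRNA. Both lay wholly below the 591 to 665 CPM with GFP mRNA. With both factors 1 of 9 satellite glia markers tested rose and 1 fell (median log2 0.05). Of 15 pan-neuronal markers 1 rose and 3 fell with both factors, and of 8 fibroblast markers tested 1 rose. The part of these marker shifts in the rises and falls of members was not tested.

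Beyond the members, Bcam averaged 1038 ± 88.2 CPM with Atf4 plus Cebpg mRNA and 1250 ± 76.7 CPM with Atf4 mRNA, against 1737 ± 197 CPM with GFP mRNA, and both were lower without overlap (log2 -0.74, adjusted p = 4.43e-05, and log2 -0.47, adjusted p = 0.00645). Sdc1 was lower with both factors (log2 -1.05) and with Atf4 alone (-0.64), and Fbln5, a fibulin that binds integrins, was higher in both (log2 1.98 and 1.57). Thbs1 and Nid2 rose with both factors (log2 0.88 and 1.20). Of the 24 matrix genes tested, 3 rose and 2 fell with both factors and 1 rose and 2 fell with Atf4 alone. Beside this list and the next, 12.4% of all genes rose and 12.2% fell with both factors. With Atf4 alone 4.84% of all genes were called and 2.09% fell. Of 37 adaptors and kinases, 3 rose and 7 fell with both factors, led by Tln1 (log2 -0.43), Git1 (-0.50) and Ptk2b (-0.56) down and Tln2 (0.72), Tns3 (0.41) and Lims1 (0.35) up, while 1 (Tln1, log2 -0.25) fell with Atf4 alone.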

How the data were processed

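Stranded mRNA libraries of 48 samples were deposited as 2 tables, split between knockdown (with time 0) and mRNA overexpression. The authors made the deposited values, expected counts (estimated counts) per gene, with kallisto on GRCm39. Tool and build are those of the submitters' processing notes, while version, annotation and scaling were not given in the sources used here. Small values of genes with 1 transcript and a length of 2000 bp or more (3003 genes), multiplied by that length, gave 1 read the same weight in every gene (1891 to 2219 bp times counts, near the weighted mean transcript length of 1915 to 2075 bp), so the values were read as scaled TPM. The counting error assumed by the test is then too small for short transcripts, and for long ones too large. Symbols came from GENCODE (GRCm38) for 32470 of 34183 identifiers (95.0%), and promoters from RefSeq GRCm38.p6, with no coordinates carried over from the files.

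Expected counts were rounded, filtered by filterByExpr, scaled by TMM and tested with edgeR 4.0.16 (quasi-likelihood F test, R 4.3.3), with Benjamini-Hochberg adjustment over all genes of a fit and a threshold of 0.05. Time 0 and siCONTROL were fitted alone, the 8 siRNA groups together and the 3 mRNA groups together. DESeq2 1.42.0, median-ratio size factors, no filter, 2 groups alone, a replicate block and leaving out each library were alternatives, and length-rescaled counts and leaving out libraries under 2500000 counts were added after seeing the data. The test was checked on simulated counts. Every member past the threshold is named, values in every library are given for up to 8 a comparison with the smallest adjusted p, and of each pathway list up to 3 called genes in each direction are named. Other genes with values were chosen after these were seen. The members and lists were chosen with earlier results of these data known. 1 member is not reported here beyond its place in the counts.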

Additional observations from a re-analysis of the deposited data

Results flagged for a closer look

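Of 66 groups of 4 libraries examined for the called members, 5 had 1 library far from the other 3, and chance alone gives about 1 in 20. Itga2 was at 2.94 CPM in replicate 4 of time 0, where the others were at 0.467 to 0.592 CPM, and at 2.79 CPM in replicate 1 of Atf4 plus Cebpg mRNA, where the others were at 1.33 to 1.47 CPM. Itgb1 was at 441 CPM in that same replicate 1 of Atf4 plus Cebpg mRNA, against 357 to 367 CPM in its other libraries. Lama5 was at 3.30 CPM in replicate 3 of time 0 (others 1.34 to 1.67 CPM), and Itgb5 at 15.4 CPM in replicate 1 of siAtf4 (others 11.6 to 12.2 CPM).

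The 4 direct contrasts between knockdowns gave 17 differences over 9 members in edgeR's test. Against siAtf4, siAtf3 was higher for Itgb5 (log2 1.06) and Itga5 (0.70) and lower for Itga4 (-1.14), Lamb3 (-1.13), Itga7 (-0.94) and Itgb1 (-0.27), or 6 of 26 where 22.9% of all genes were called. Against siAtf4, siJun was higher for Itga1 (log2 1.30), Itgb5 (1.15) and Itga6 (0.31) and lower for Lamb3 (-1.01), Itga7 (-0.90), Itga3 (-0.41) and Itgb1 (-0.17), or 7 of 26 where 18.6% of all genes were called. Itga5 was higher in siAtf3 than in siJun (log2 1.003). Lamb3 (log2 -1.09), Itga5 (-0.72) and Itga3 (-0.45) were lower in siJun than in siStat3, or 3 of 26 where 9.94% of all genes were called. The contrasts share groups with one another. Itga4 was at 0.938, 0.766, 1.10 and 1.16 CPM with siAtf3, against 2.35, 2.49, 1.85 and 2.56 CPM with siAtf4, without overlap, and Itga1 at 3.10, 3.55, 4.72 and 5.57 CPM with siJun, against 1.75, 1.60, 1.95 and 1.65 CPM with siAtf4. Neither gene was called against siCONTROL in any knockdown.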

How the results depend on the processing

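The 44 calls on members were recomputed in 628 values over the alternatives: 549 stayed past the threshold, 79 did not and 0 changed sign. Of the 79, 59 came from leaving out 1 library, 8 from fitting the 2 groups alone, 6 from no filter on low counts, 2 each from the replicate block and from leaving out libraries under 2500000 counts, and 1 each from DESeq2 and from median-ratio (RLE) size factors. Counts of members moved as follows, and the cause was not tested. The share of all genes called in each setting is not given beside these counts, here or above. Nothing about the members is therefore read from these moves. The siAtf4 count of 1 became 2 with the replicate block, with length-rescaled counts and without the libraries under 2500000 counts. The siStat3 count of 2 became 1 with RLE size factors, with no filter and in the 2 groups alone, and the siKlf6 count of 1 became 0 in the 2 groups alone and without the small libraries. For Atf4 mRNA against GFP mRNA, 2 became 1 with no filter and 4 with length-rescaled counts. For Atf4 plus Cebpg mRNA against Atf4 mRNA, 2 became 1 with no filter and with the replicate block, 4 with length-rescaled counts and without the small libraries, and 0 in the 2 groups alone. Leaving out 1 library at a time gave 16 to 18 members for culture, 4 to 6 for siAtf3, 1 to 2 for siAtf4, 4 to 4 for siJun, 1 to 2 for siStat3, 0 to 1 for siKlf6, 0 to 0 for siRest, 2 to 3 for siAlyref, 1 to 2 for Atf4 mRNA, 5 to 8 for Atf4 plus Cebpg mRNA against GFP mRNA and 0 to 4 against Atf4 mRNA. Fitted in 2 groups alone, Lamb3 in siJun (adjusted p = 0.0923) and Itgb1 in siAtf3 (adjusted p = 0.0616) were lost. The deviations of same-numbered libraries correlated weakly, at 0.045 to 0.179, and in 0 comparisons was every pair over 0.1. In 8 comparisons every library was nevertheless closest to its own number. So were 3 of 4 libraries in siAtf3 and in siJun, and the 3 same-numbered pairs in siKlf6. Equal numbers may thus mark a shared preparation. The main test and the readings of overlap leave such pairing out, while the replicate block takes it in. Under the replicate block the 2 calls lost were Itgav with Atf4 plus Cebpg mRNA against GFP mRNA (log2 0.51, adjusted p = 0.0503) and against Atf4 mRNA (log2 0.61, adjusted p = 0.0619). Replacing TMM with library totals would shift all log2 fold changes by under 0.1. Depth limits the members of a few CPM, where a library holds a handful of counts.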

Other observations

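Itga11, left out of the mRNA fit by the filter on low counts, was at 2.40, 2.75, 1.08 and 2.55 CPM with Atf4 plus Cebpg mRNA and at 0.897, 0.314, 0.449 and 0 CPM with Atf4 mRNA, against 0.260, 0.207, 0.254 and 0.286 CPM with GFP mRNA. The Atf4 plus Cebpg mRNA libraries lay above the others. The gene was picked after its values were seen and was not tested there. It is the same collagen receptor gene that was at 2.66 to 3.55 CPM at time 0 and at 0.139 to 0.675 CPM in siCONTROL at 42 h.

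Itga3 with siRest was at 118, 124, 119 and 123 CPM, a tighter group than siCONTROL at 122, 119, 88.6 and 99.7 CPM, and was not called.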
